A study of Mus musculus with 19 samples.

Results

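Cerebellar granule cells are the small glutamatergic neurons that fill the granular layer of the cerebellum. The genes described here are 10 that these cells are known to use: the transcription factors Neurod1, Zic1, Zic2, Etv1 and Pax6, the secreted proteins Cbln1, Cbln3 and Reln, the adhesion protein Fat2 and the transporter Slc17a7. They were taken by symbol, and each symbol matched 1 of the 41388 Ensembl genes in the count tables. All 10 passed the filter on low counts in every comparison.

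RNA-seq counts were compared between Wiz MommeD30/+ mice (Het), which carry 1 mutant allele of the zinc-finger gene Wiz, and Wiz +/+ mice (WT), all of the FVB strain. Adult cerebellums came from males at 56 days post partum (3 WT and 3 Het), and whole brains came from embryos at 13.5 days post coitum (E13.5; 3 WT and 3 Het males, 2 WT and 2 Het females). The allele arose in a chemical (ENU) mutagenesis screen in the Line3 strain on the FVB/NJ background and was bred on in that strain, all of whose mice carry an array of GFP transgenes driven by α-globin sequences of human origin. Both genotypes therefore come from a transgenic colony, and the allele is present in all cell types rather than in granule cells alone.

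Granule cells are born from progenitors of the rhombic lip, which express Atoh1, multiply in the external granular layer in response to Sonic hedgehog and then migrate inwards past the Bergmann glia. Mature granule cells send parallel fibres to the dendrites of Purkinje cells. There they release glutamate that Slc17a7 has loaded into synaptic vesicles, and Cbln1 secreted from the fibres helps to hold these synapses together. At E13.5 these cells have not yet formed a granular layer, and a whole brain also holds the forebrain, midbrain and hindbrain.

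Total counts per sample were 28365687 to 30856484 in cerebellum and 16386029 to 50459755 in E13.5 brain, and the smallest library was the second male WT brain. Levels of a gene are given below as counts per 1000000 counts of the sample (CPM), which allow a gene to be compared between samples. They are also given as CPM per kilobase of annotated exon (RPKM), by which genes are set beside each other. The length is the union of all annotated exons, 2729 bases at Neurod1 and 11694 at Pax6. It can exceed the length of a transcript, so that the order of genes depends in part on the annotation. Genotype was checked by Wiz itself, which had 95.4 to 95.5 CPM in the WT cerebellums and 66.6 to 67.7 CPM in the Het cerebellums, a log2 fold change of -0.50 ± 0.032 (SE, n = 3 and 3, adjusted p = 9.9e-08, edgeR quasi-likelihood test), and which passed with -0.63 in male and -0.57 in female E13.5 brain. The second Het cerebellum stood apart in genes of neighbouring tissue: 5 choroid plexus genes summed to 927 CPM in it and to 1710 to 2004 CPM in the other cerebellums, and 6 red blood cell genes summed to 482 CPM in it, 267 and 281 CPM in the other Het cerebellums and 146 to 228 CPM in the WT cerebellums. Among the E13.5 brains, the sum of 4 forebrain genes ran from 151 to 351 CPM.

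The 10 genes together took 0.652% to 0.679% of all counts in the cerebellums, and 0.0792% to 0.0896% in the E13.5 brains. In WT cerebellum the per-length level was highest for Cbln3, at 326 ± 6.42 RPKM (SD, n = 3), which ranked 44 among 22482 detected genes. Cbln1 followed with 252 ± 4.92 RPKM, Zic1 with 185 ± 3.57 RPKM and Neurod1 with 176 ± 1.00 RPKM. Slc17a7 had 105 ± 2.42 RPKM, Zic2 86.2 ± 4.69 RPKM, Fat2 63.4 ± 3.59 RPKM and Etv1 36.6 ± 1.41 RPKM. Reln, with 17.4 ± 0.928 RPKM, and Pax6, with 10.96 ± 0.253 RPKM, were the lowest. With the annotated lengths taken as given, no neighbours in this order had overlapping ranges over the 3 WT cerebellums.

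In WT male E13.5 brain the order was another one. Zic1 was the highest, at 52.8 ± 2.45 RPKM (SD, n = 3). Neurod1 (19.97 ± 1.44 RPKM), Zic2 (19.8 ± 1.08 RPKM) and Cbln1 (19.0 ± 1.64 RPKM) came next, and their ranges overlapped. Reln had 11.2 ± 1.12 RPKM and Pax6 8.69 ± 0.542 RPKM. Slc17a7 (3.07 ± 0.652 RPKM) and Etv1 (2.34 ± 0.158 RPKM) again had overlapping ranges, while Cbln3 (0.293 ± 0.0628 RPKM) and Fat2 (0.0856 ± 0.0027 RPKM) were the lowest.

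**Figure D1:**
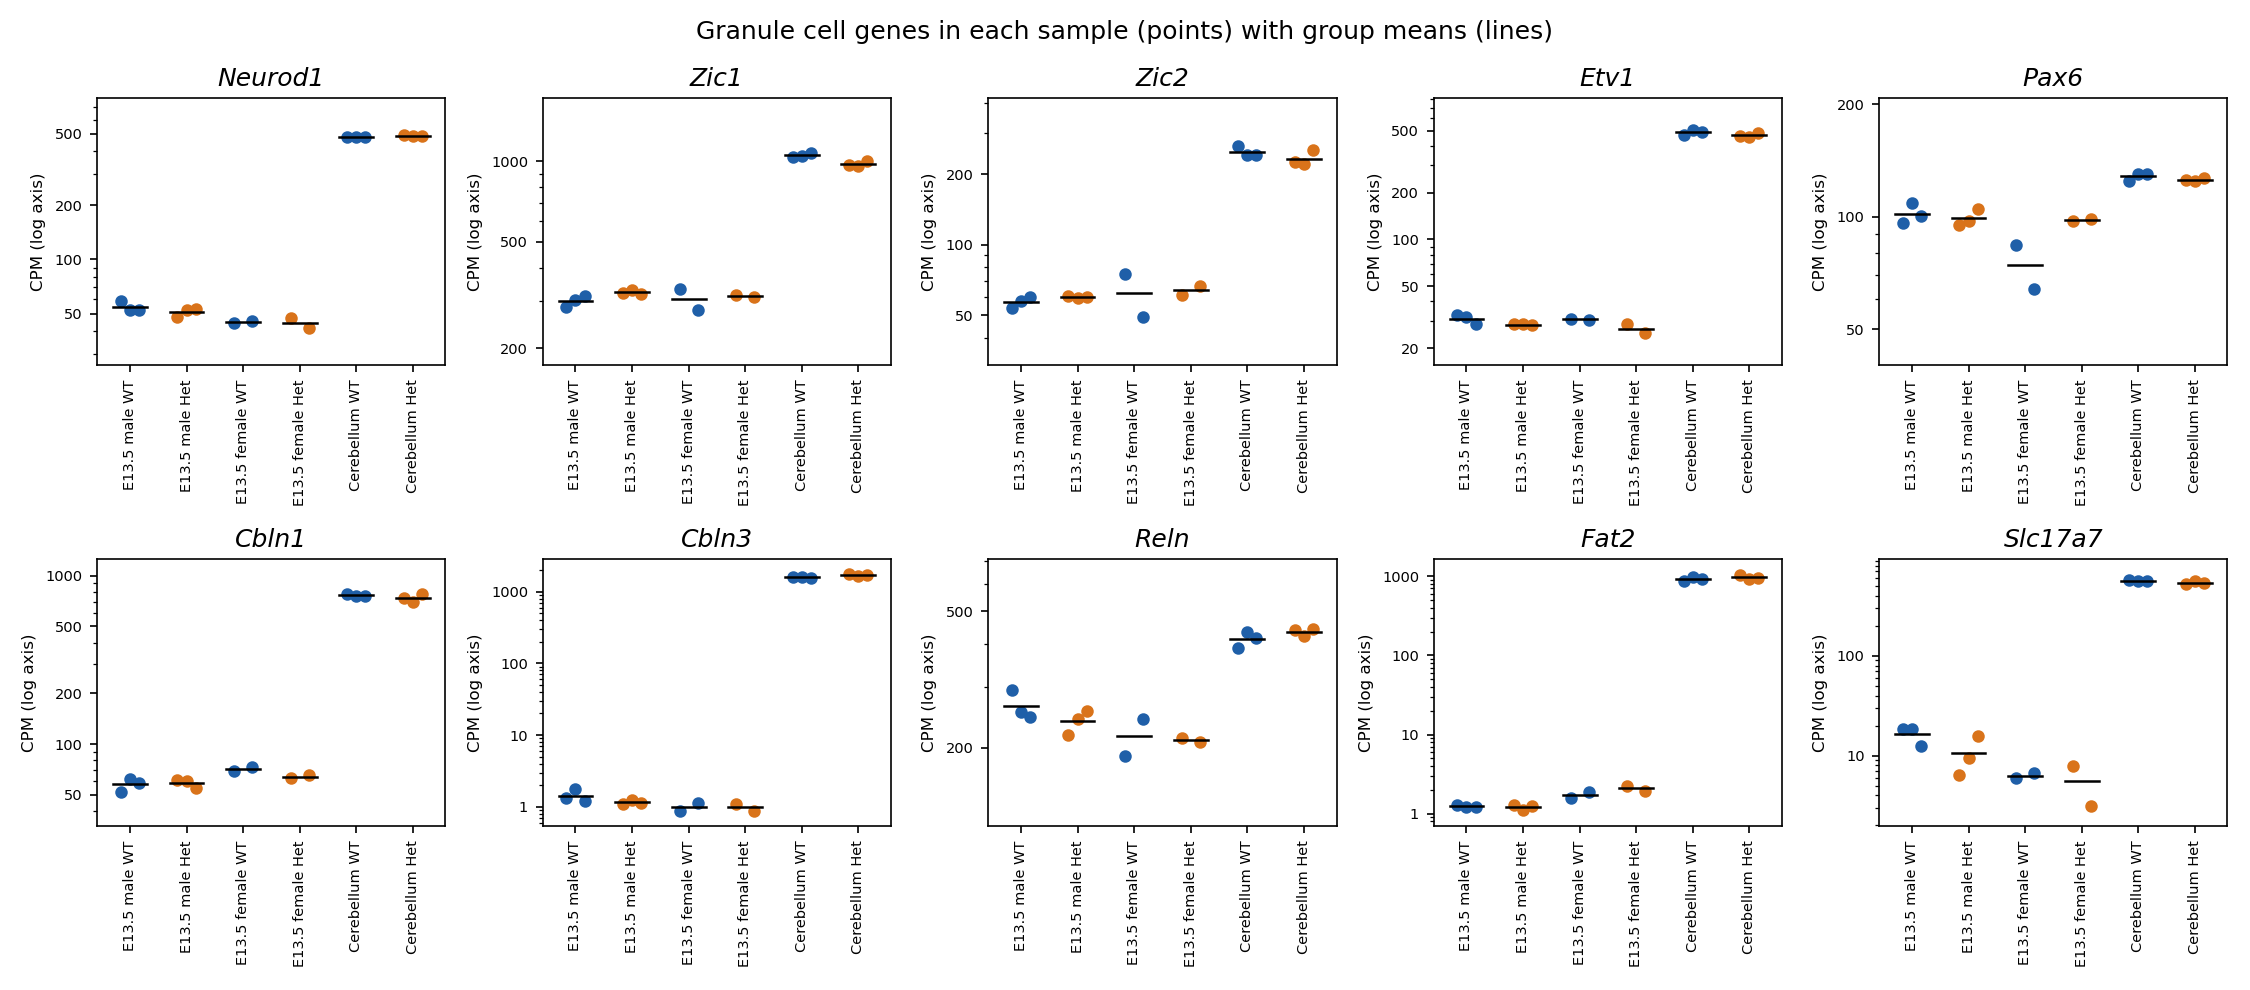
CPM (vertical log axis, a different range in each panel) of the 10 granule cell genes in each of the 16 samples (points; WT blue, Het orange), by tissue, sex and genotype, with group means as lines. For each gene every cerebellum lies above every E13.5 brain, while the points of WT and Het cerebellum lie close together. Between WT cerebellum and WT male E13.5 brain 86.5% of all 16840 genes tested differed, so that this separation by itself says little.

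Genomic positions are those of GENCODE M21 on GRCm38 (mm10). The transcription factor genes are Neurod1 (ENSMUSG00000034701, chr2:79452521-79456751, minus strand), Zic1 (ENSMUSG00000032368, chr9:91358058-91365810, minus), Zic2 (ENSMUSG00000061524, chr14:122475435-122479852, plus), Etv1 (ENSMUSG00000004151, chr12:38779380-38870484, plus) and Pax6 (ENSMUSG00000027168, chr2:105668900-105697364, plus). The genes of secreted proteins are Cbln1 (ENSMUSG00000031654, chr8:87468405-87472609, minus), Cbln3 (ENSMUSG00000040380, chr14:55878913-55884392, minus) and Reln (ENSMUSG00000042453, chr5:21884454-22344702, minus). Fat2 (ENSMUSG00000055333) lies at chr11:55250609-55336564 on the minus strand and Slc17a7 (ENSMUSG00000070570) at chr7:45163949-45176142 on the plus strand. The counts are sums over all exons of a gene. Some of those exons are shared: Zic1 and the oppositely oriented Zic4 have 60 exon bases in common, Neurod1 shares 201 bases with Cerkl and 154 with Gm26755, and Reln shares 246 with the antisense gene Gm10475. Whether strand was used in counting is not given in the sources used here. Zic4 itself had 59.1 CPM in WT and 58.9 CPM in Het cerebellum, where Zic1 had 1056 and 977 CPM.

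RefSeq start sites (GRCm38.p6) were available for 8 of the 10 genes, all but Cbln1 and Zic2. In the 250 bases before the start, the promoters of these genes were unlike each other. At Fat2 and Etv1 the GC content was 41.6% and 46.4%, and at Pax6 and Neurod1 it was 60.8% and 67.6%. GC content was 80.0% with 37 CpG dinucleotides at Reln, 66.0% with 27 at Zic1, 61.2% with 9 at Slc17a7 and 57.6% with 2 at Cbln3, where the medians over all 27025 promoters were 52.0% and 6. These 4 are shown because they cover the largest difference between tissues (Cbln3), a small one (Reln), the genes that differed between genotypes in cerebellum (Zic1 and Cbln3) and the gene that varied most in relative terms among embryonic brains (Slc17a7). Only the bases that lie upstream of the whole annotated gene are printed, 5′ to 3′ on the strand of the gene. Capitals mark GGGCGG or its reverse complement CCGCCC, the core of the GC box.
Cbln3, chr14:55884393-55884506, minus strand: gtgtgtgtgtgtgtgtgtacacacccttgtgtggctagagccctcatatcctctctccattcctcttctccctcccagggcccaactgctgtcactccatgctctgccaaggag
Reln, chr5:22344706-22344955, minus strand: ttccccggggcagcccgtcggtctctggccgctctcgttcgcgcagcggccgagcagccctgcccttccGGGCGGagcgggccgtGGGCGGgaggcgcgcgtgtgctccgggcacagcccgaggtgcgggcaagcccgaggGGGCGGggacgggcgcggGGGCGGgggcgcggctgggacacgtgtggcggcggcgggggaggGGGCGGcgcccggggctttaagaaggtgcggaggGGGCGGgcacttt
Zic1, chr9:91365811-91366018, minus strand: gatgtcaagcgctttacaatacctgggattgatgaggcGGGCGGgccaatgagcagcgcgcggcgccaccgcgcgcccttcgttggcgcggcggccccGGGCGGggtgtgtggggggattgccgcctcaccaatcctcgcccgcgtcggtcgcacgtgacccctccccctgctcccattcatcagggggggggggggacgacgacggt
Slc17a7, chr7:45163671-45163920, plus strand: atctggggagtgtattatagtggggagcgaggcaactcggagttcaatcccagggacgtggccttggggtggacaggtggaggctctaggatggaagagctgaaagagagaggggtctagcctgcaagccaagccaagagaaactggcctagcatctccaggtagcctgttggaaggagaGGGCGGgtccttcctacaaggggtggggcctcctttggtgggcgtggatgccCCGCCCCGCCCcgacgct
The printed bases hold 0 matches to GGGCGG on either strand at Cbln3, 6 at Reln, 2 at Zic1 and 3 at Slc17a7, of which the last pair overlaps. The full 250-base windows of these genes hold the same numbers, while Neurod1 has 4 matches and Pax6, Fat2 and Etv1 have 0. At least 1 match is present in 32.9% of all 250-base promoters. The printed Zic1 bases also lie inside the span of Zic4, between its exons. The E-box letters CAGCTG, present in 12.8% of all promoters, and CAGATG (or CATCTG), present in 14.5%, were absent from all 8 windows of the granule cell genes. The windows of Fat2 and Etv1 lie inside the GENCODE gene, since its start is further upstream than the RefSeq start used.

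To see where these genes are used, WT adult cerebellum was compared with WT male E13.5 brain (n = 3 and 3). All 10 were higher in cerebellum, by 1.47-fold for Pax6 to 1360-fold for Cbln3. Over all 16840 genes tested the tissues differed in 86.5%, with 42.9% higher and 43.6% lower in cerebellum, so that a call by itself says little here. The median log2 difference was 3.65 over the 10 genes and -0.015 over all genes. Cerebellum and E13.5 brain differ both in region and in age, and the contributions of these cannot be told apart. Other lists differed too. Of 10 Purkinje cell genes 9 were higher in cerebellum, and the 4 forebrain genes summed to at most 4.19 CPM there against 279 to 351 CPM in the WT male brains. The median log2 difference was 5.31 for the Purkinje, 3.75 for the Bergmann glia and astrocyte and 6.37 for the oligodendrocyte list, each above the 10 genes. It was lower for inhibitory interneuron (1.35) and microglial genes (0.653). Of 5 genes of unipolar brush cells, also of the granular layer, 2 were higher and 3 lower. In bulk tissue, fewer cells of a type and less RNA per cell cannot be told apart either.

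Among the transcription factors, Etv1, an ETS-domain factor of maturing granule cells, had 469, 506 and 486 CPM in the WT cerebellums and 32.6, 31.9 and 28.7 CPM in the WT male brains. The log2 difference was 4.18 ± 0.055 (SE, adjusted p = 8.61e-18). Neurod1, a basic helix-loop-helix factor that granule cells need to differentiate, had 478, 482 and 482 CPM in cerebellum and 59.1, 52.2 and 52.2 CPM in E13.5 brain, a log2 difference of 3.34 ± 0.052 (SE). Both factors were thus present, at a lower level, in the embryo.

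Zic2 and Zic1, zinc-finger factors of the dorsal neural tube that stay on in the granule lineage, differed by 2.34 ± 0.05 and 2.03 ± 0.041 (log2, SE). Zic1 had 1039, 1049.8 and 1079 CPM in the WT cerebellums and 286, 304 and 313 CPM in the WT male brains, so that it was already abundant at E13.5. Pax6, a paired-box factor that also marks progenitors of the embryonic forebrain, was the least different of the 10 genes, with 125, 129.8 and 130.0 CPM in cerebellum and 96.0, 109 and 100.4 CPM in E13.5 brain. Its log2 difference was 0.56 ± 0.043 (SE, adjusted p = 7.77e-09). The groups did not overlap, where 86.5% of all genes tested differed between these tissues.

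Cbln3 and Fat2 had the largest differences of the 10 genes. Cbln3, which is secreted in complexes with Cbln1, had 1617, 1592 and 1555 CPM in the WT cerebellums and 1.31, 1.77 and 1.19 CPM in the WT male brains. Its log2 difference of 10.41 ± 0.073 (SE, adjusted p = 5.98e-20) was the eighth largest, rank 8 of 16840. Fat2, an atypical cadherin of parallel fibres, had 864, 966 and 933 CPM against 1.29, 1.22 and 1.22 CPM, a log2 difference of 9.72 ± 0.078 (SE) and rank 17.

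Slc17a7, the vesicular glutamate transporter of granule cells and of cortical neurons, had 580.0, 557 and 558 CPM in cerebellum and 18.6, 18.6 and 12.5 CPM in E13.5 brain, a log2 difference of 5.31 ± 0.098 (SE). Against the 2 WT female brains in place of the males the difference was 6.69, where those brains had 5.96 and 6.70 CPM. Cbln1 had 782, 756 and 755 CPM in cerebellum and 52.2, 61.9 and 58.7 CPM in E13.5 brain, a log2 difference of 3.96 ± 0.053 (SE). It was therefore detected in the embryo at about the per-length level of Neurod1, whereas its partner Cbln3 was at 0.293 RPKM there. Reln, an extracellular protein that guides migrating neurons and in the embryonic cortex is made by Cajal-Retzius cells, had 390.2, 434 and 416 CPM in cerebellum and 295, 254 and 245 CPM in E13.5 brain, a log2 difference of 0.85 ± 0.063 (SE).

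**Figure D2:**
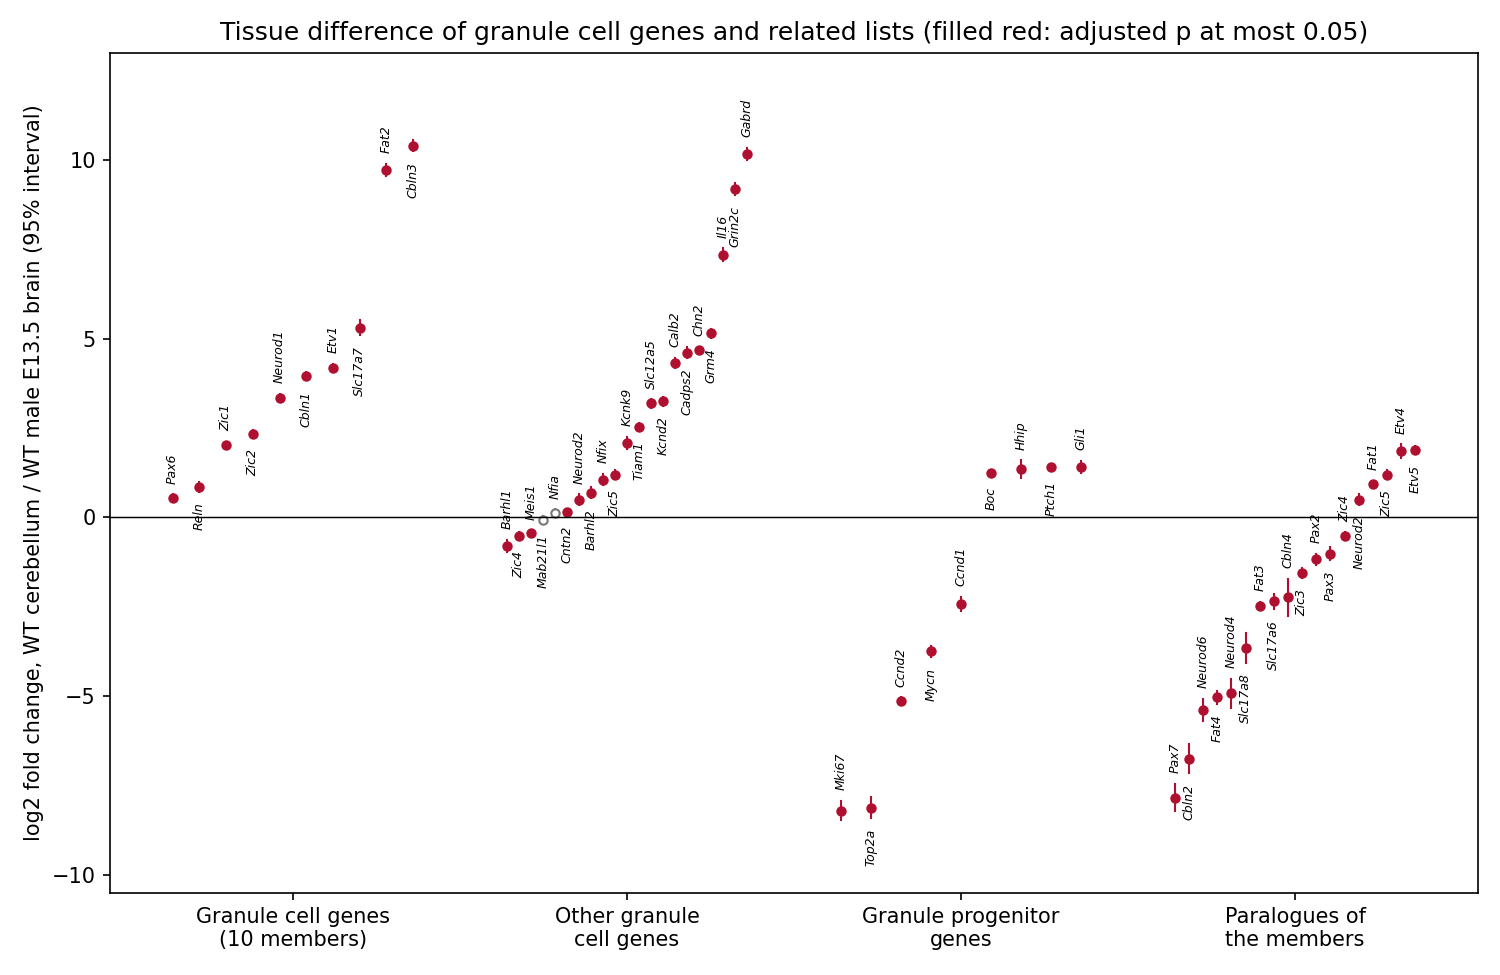
log2 fold change between WT cerebellum and WT male E13.5 brain (vertical axis; n = 3 and 3) of the 10 granule cell genes, of other genes of the granule cell, of progenitor genes and of paralogues, 1 point per gene with its 95% interval. The 10 genes lie between 0.56 and 10.41, while the paralogues lie on both sides of 0; Gabra6 and Atoh1, with at most 1 count in 1 tissue, are left out.

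Other granule cell genes were mostly higher as well, but over a range that went below 0. Of 22 such genes, 17 were higher and 3 lower in cerebellum, with a median log2 difference of 2.31. Over all genes tested 42.9% were higher and 43.6% lower. Gabra6, the GABA receptor subunit that defines mature granule cells, had 885 to 896 CPM in the WT cerebellums and a single count over the 3 WT male brains. Gabrd, its extrasynaptic partner subunit, differed by 10.17 ± 0.082 (log2, SE) and the glutamate receptor subunit Grin2c by 9.19 ± 0.080. The 3 that were lower, Barhl1 (-0.79 ± 0.076), Zic4 (-0.53 ± 0.052) and Meis1 (-0.45 ± 0.040), are transcription factors, and are named because they went against the rest.

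Genes of granule progenitors moved both ways. Of 10 such genes, 4 were higher and 6 lower in cerebellum, where 42.9% of all genes tested were higher and 43.6% lower. Ccnd2, a cyclin, was lower by a log2 difference of -5.13 ± 0.046 (SE), as were the proliferation genes Mki67 (-8.21 ± 0.126) and Top2a (-8.12 ± 0.141). Atoh1 had 0 counts in all 6 cerebellums and 2.18 to 2.62 CPM in the WT male brains, at least 70.6-fold lower in WT cerebellum when 3 counts over the group are taken as the floor. The 4 higher genes, Gli1, Ptch1, Boc and Hhip (1.24 to 1.42 log2), belong to the Sonic hedgehog pathway and were named for that after their values were seen.

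Paralogues of the 10 genes went both ways. Some of them also stand in other lists: Zic4, Zic5 and Neurod2 among the other granule cell genes, and Cbln2 and Cbln4 among the cerebellin relatives. The counts of this paragraph are read against the 42.9% of all genes that were higher and the 43.6% that were lower. Of 18 paralogues, 5 were higher in cerebellum and 13 lower, with a median log2 difference of -1.90. The higher ones were Etv5 (1.89 ± 0.053, log2, SE) and Etv4 (1.85 ± 0.092), both relatives of Etv1, with Zic5 (1.19 ± 0.059), Fat1 (0.94 ± 0.042) and Neurod2 (0.50 ± 0.066), all 5 named after their values were seen. Among the lower ones were Fat4 (-5.03 ± 0.086, SE), Fat3 (-2.48 ± 0.056) and Pax7 (-7.85 ± 0.178). Of 6 cerebellin relatives and partners, 4 were higher, among them the neurexin gene Nrxn3 at 1.65 ± 0.042, and 2 were lower, among them Cbln2 at -6.75 ± 0.190. Of 9 genes that carry the Reln signal, 2 were higher and 5 lower: the receptor gene Vldlr was higher (1.34 ± 0.041) and the receptor gene Lrp8 lower (-0.97 ± 0.041), as was the kinase gene Src (-0.93 ± 0.040).

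The main question was whether the MommeD30 allele changes these genes in the adult cerebellum. The differences were small. At an adjusted p of at most 0.05, 1 of the 10 genes was lower in Het (Zic1) and 1 was higher (Cbln3), where 5.25% of the 15979 genes tested passed, 2.56% lower and 2.69% higher. At an unadjusted p under 0.05 there were the same 2 genes, against 19.9% of all genes. No member had a fold change below 0.7 or above 1.3, the limits used by the study, which 0.832% of all genes passed together with the adjusted p. The 95% intervals of the fold changes of all 10 genes lay within 0.879 and 1.133.

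Zic1 had 1039, 1049.8 and 1079 CPM in the WT cerebellums and 969.9, 960.0 and 1001 CPM in the Het cerebellums. Every Het sample was below every WT sample. The log2 fold change was -0.11 ± 0.029 (SE, 95% interval -0.17 to -0.05), or 0.926-fold, with an adjusted p of 0.0331 (edgeR quasi-likelihood test). The call was lost when any of 4 libraries was left out. The adjusted p was 0.0514 without the second WT and 0.188 without the third WT cerebellum. Without the first or the second Het cerebellum it was 0.101 and 0.113. Refits that each dropped a single cerebellum estimated Zic1 at -0.127 to -0.095 (log2). The count of all genes passing, 839 with every cerebellum kept, was 187 to 891 in the same refits.

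Cbln3 had 1617, 1592 and 1555 CPM in the WT cerebellums and 1770.4, 1668 and 1724 CPM in the Het cerebellums, again without overlap but in the other direction. Its log2 fold change was 0.12 ± 0.030 (SE, 95% interval 0.05 to 0.18), or 1.085-fold, with an adjusted p of 0.0313. Leaving out the third WT, the first Het or the third Het cerebellum gave 0.188, 0.101 and 0.0678. Without the second Het cerebellum, which stood apart in choroid plexus and blood genes, it was 0.019. Refits that each dropped a single cerebellum estimated Cbln3 at 0.099 to 0.141 (log2). With none dropped, both genes passed the Wald test of DESeq2 (adjusted p = 0.00631 for Zic1 and 0.00286 for Cbln3). In 1 fit over all 16 samples neither gene passed (adjusted p = 0.319 for Zic1 and 0.188 for Cbln3).

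The 8 other genes did not pass the test. Neurod1 had 478, 482 and 482 CPM in WT and 494, 487 and 486 CPM in Het cerebellum: the groups did not overlap, but the means differed by a log2 of only 0.026 ± 0.026 (SE). Groups without overlap were found for 3 of the 10 genes and for 24.3% of all genes tested.

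Zic2, the close relative of Zic1, had 264, 239.9 and 241 CPM in WT and 224, 221 and 253 CPM in Het cerebellum, with a log2 fold change of -0.09 ± 0.046 (SE, adjusted p = 0.287). It ran in the direction of Zic1, but 1 Het sample lay among the WT samples, and without the third Het cerebellum the adjusted p was 0.035. Etv1 (469, 506 and 486 CPM in WT, 459, 457 and 479.6 CPM in Het) and Pax6 (125, 129.8 and 130.0 CPM, and 126, 124 and 127 CPM) gave -0.065 ± 0.032 and -0.027 ± 0.030 (SE). For both the groups overlapped.

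Cbln1, with 782, 756 and 755 CPM in WT and 740.2, 694 and 774 CPM in Het cerebellum, gave -0.054 ± 0.035 (log2, SE, adjusted p = 0.43), so that only Cbln3 of this pair passed the test. The difference between Cbln1 and Cbln3 was not tested. Reln had 390.2, 434 and 416 CPM in WT and 442, 422 and 442 CPM in Het, a log2 fold change of 0.076 ± 0.036 (SE, adjusted p = 0.253). Fat2, with 864, 966 and 933 CPM against 1022, 927 and 958 CPM, gave 0.075 ± 0.041, and Slc17a7, with 580.0, 557 and 558 CPM against 524, 561 and 541 CPM, gave -0.058 ± 0.030. In each the lowest or highest sample of one genotype lay inside the range of the other.

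**Figure D3:**
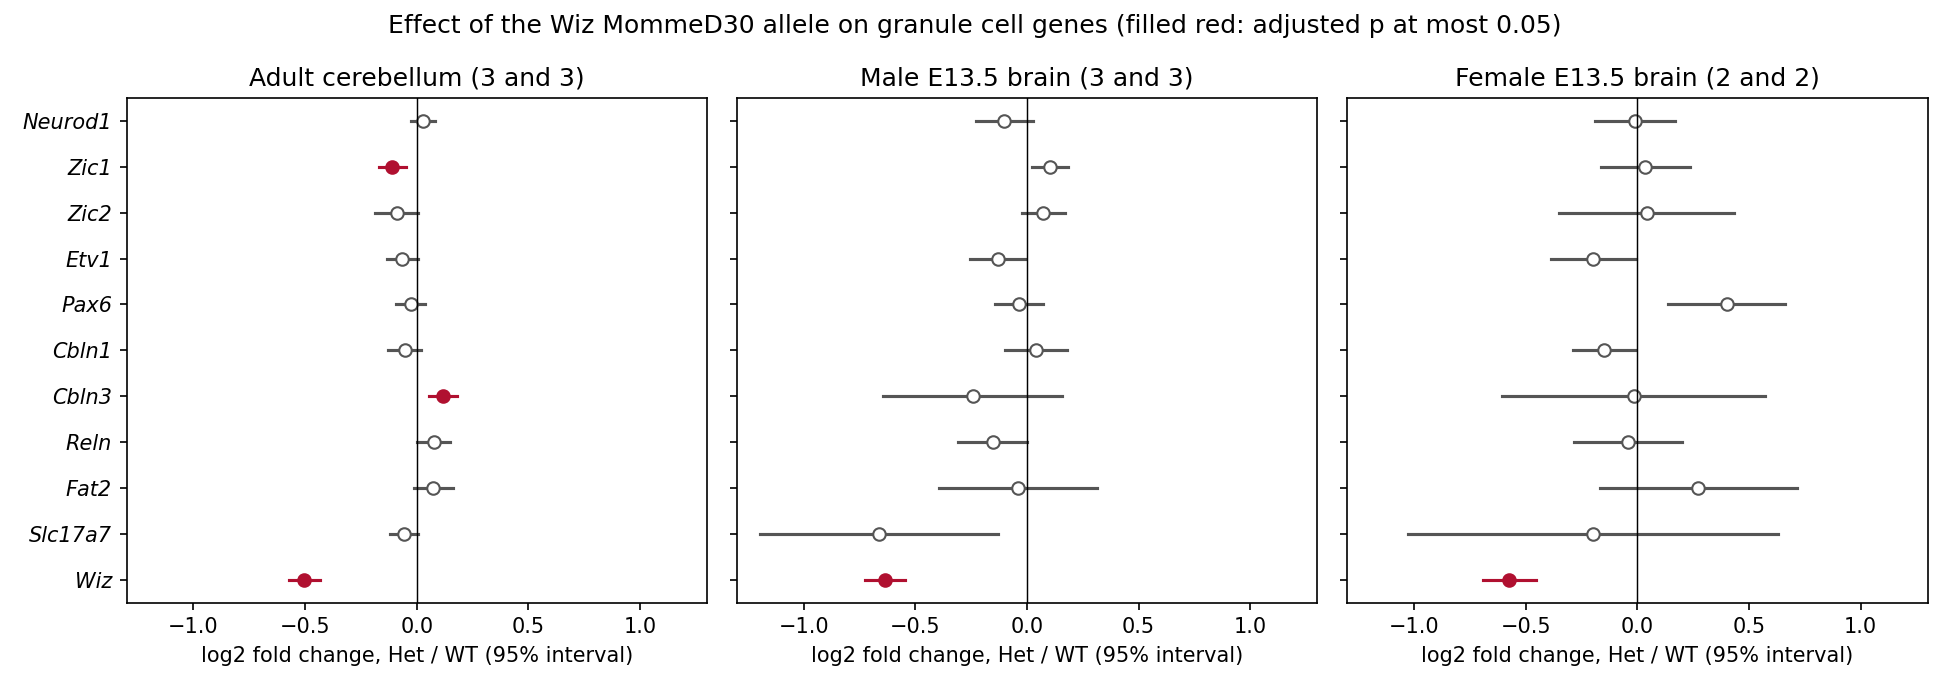
log2 fold change of Het over WT (horizontal axis) with its 95% interval for the 10 granule cell genes and Wiz in adult cerebellum (n = 3 and 3), male E13.5 brain (3 and 3) and female E13.5 brain (2 and 2); filled red points passed an adjusted p of 0.05. In cerebellum all intervals of the 10 genes lie between -0.186 and 0.18, and in the brains only Wiz passed.

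The standard errors of these fits were small. For the 10 genes in cerebellum they were 0.026 to 0.046 on the log2 scale, below the median of 0.058 over all genes. They are errors of the fitted model, and in a single set of simulated counts this comparison had a share of false calls above the nominal level. The calls of Zic1 and Cbln3, both well under the 1.3-fold limit, were lost when some single libraries were left out. The median log2 fold change of the 10 genes was -0.04, against -0.003 over all genes.

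Other granule cell genes also differed little in size and in both directions. Of the 22 such genes, Gabrd was lower (-0.12 ± 0.033, log2, SE, adjusted p = 0.0434) and Cntn2, a contactin of parallel fibres, higher (0.11 ± 0.028, adjusted p = 0.0315) in Het cerebellum, and the median was 0.001. At an unadjusted p under 0.05 there were 8 of the 22, against the 19.9% of all genes. None of the 9 tested progenitor genes, the 5 tested cerebellin relatives and partners or the 9 genes of the Reln pathway passed in edgeR, where 5, 2 and 2 of them had an unadjusted p under 0.05, read against the same 19.9%. Of 16 tested paralogues, 7 had an unadjusted p under 0.05 and 2 passed: Etv5, an ETS factor, was lower by a log2 fold change of -0.30 ± 0.058 (SE) and Fat1 higher by 0.16 ± 0.042.

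Genes of the other cell types of the cerebellum were listed beside these values. The calls are read against the 5.25% of all genes that passed and the 19.9% with an unadjusted p under 0.05. Of 10 Purkinje cell genes 1 was higher, Rora (0.16 ± 0.034). The Bergmann glia and astrocyte list had 1 of 10 higher (Gdf10) and 2 lower (Gfap and Fabp7), and the oligodendrocyte list 3 of 8 lower (Mag, Mbp and Cnp). Of 6 red blood cell genes 4 were higher, with a median of 0.86. The neural progenitor list, which adult glia share in part, had 3 of 6 lower (Nes, Sox2 and Notch1), the immediate early list 2 of 6 lower (Arc and Nr4a1), and the list of unipolar brush cells, the other glutamatergic neurons of the granular layer, 1 of 5 lower (Eomes). None of 8 inhibitory interneuron genes or 8 microglial genes passed in edgeR, where 3 and 0 had an unadjusted p under 0.05. In the same test that p was reached by 5 Purkinje, 4 Bergmann glia and astrocyte and 4 oligodendrocyte genes. So it was by 5 red blood cell, 3 neural progenitor, 5 immediate early and 2 unipolar brush cell genes. The summed level of Purkinje genes was 6777 to 7226 CPM in WT and 7195 to 7302 CPM in Het, and that of oligodendrocyte genes 4953 to 5315 CPM in WT and 4799 to 4998 CPM in Het. Whether the differences in these lists had a part in the values of Zic1 and Cbln3 was not tested.

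In the male E13.5 brains none of the 10 genes passed with edgeR or with the Wald test of DESeq2, where in edgeR 0.196% of 16848 genes did. At an unadjusted p under 0.05 there were 4 members, Zic1, Etv1, Reln and Slc17a7, against 8.45% of all genes. Zic1 had 286, 304 and 313 CPM in the WT brains and 323, 329 and 320.2 CPM in the Het brains. The groups did not overlap, which in the males held for 1 of the 10 genes and for 12.3% of all genes, and the log2 fold change of 0.10 ± 0.037 (SE, adjusted p = 0.482) was opposite in sign to that in cerebellum. Etv1 had 32.6, 31.9 and 28.7 CPM against 28.7, 28.5 and 28.0 CPM (-0.13 ± 0.056), and Reln 295, 254 and 245 CPM against 218, 243 and 257 CPM (-0.15 ± 0.070). Beside Reln, 5 genes of Cajal-Retzius cells summed to 195 to 222 CPM in the WT and 204 to 232 CPM in the Het males.

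Slc17a7 had the highest ratio of its highest to its lowest level over the embryonic brains among the 10 genes, at 18.6 and 3.16 CPM, with 18.6, 18.6 and 12.5 CPM in the male WT brains and 6.40, 9.57 and 15.6 CPM in the male Het brains. The log2 fold change was -0.66 ± 0.245 (SE, adjusted p = 0.498), and the groups overlapped. Without the third Het brain it was -1.045, with an adjusted p of 0.0217. The 4 forebrain genes Emx1, Emx2, Tbr1 and Neurod6 summed to 351, 312 and 279 CPM in the same WT brains and to 185, 238 and 321 CPM in the same Het brains. Among these males, Slc17a7 was low in the brains in which the forebrain sum was low, in both genotypes. In the females it was 5.96 and 6.70 CPM in WT and 7.91 and 3.16 CPM in Het, beside forebrain sums of 164, 161, 234 and 151 CPM. The part of the forebrain share in the difference of Slc17a7 between genotypes was not tested.

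**Figure D4:**
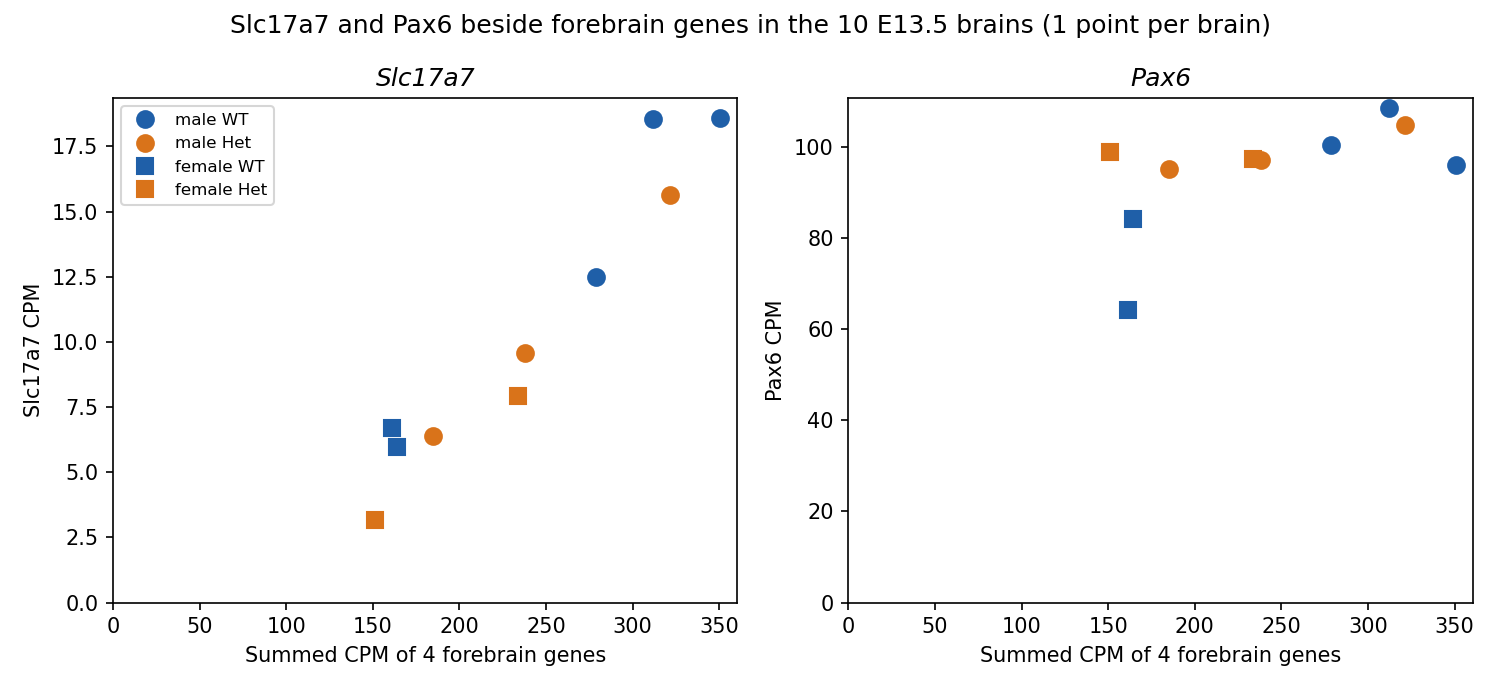
CPM of Slc17a7 (left) and Pax6 (right) against the summed CPM of 4 forebrain genes in the 10 E13.5 brains (1 point per brain; males circles, females squares, WT blue, Het orange). Slc17a7 runs from 3.16 CPM at the lowest forebrain sum, 151, to 18.6 CPM at the highest, 351, and the lowest Pax6 value, 64.2 CPM, is at a sum of 161.

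In the female E13.5 brains none of the 10 genes passed with either tool, where in edgeR 0.111% of 17152 genes did, and 3 had an unadjusted p under 0.05, against 6.40% of all genes. Pax6 had 84.1 and 64.2 CPM in the WT brains and 97.2 and 98.8 CPM in the Het brains, a log2 fold change of 0.40 ± 0.112 (SE, adjusted p = 0.773). The low value came from the second WT brain, with a forebrain sum of 161 CPM where the second Het brain had 151, and without that brain the log2 fold change was 0.22. Without the first WT brain it was 0.61 (adjusted p = 0.000724), where the lone WT brain is assumed to vary as the Het brains do, and in 1 fit over all 16 samples the adjusted p was 0.0396. The other 2 genes were Etv1, with 31.1 and 30.2 CPM in WT and 28.4 and 25.1 CPM in Het (-0.20 ± 0.081), and Cbln1, with 68.7 and 73.1 CPM and 62.5 and 65.6 CPM (-0.15 ± 0.060). With 2 brains a group, the groups did not overlap for 4 of the 10 genes and for 36.5% of all genes.

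The remaining members showed no call in the embryo. Cbln3 was at 0.863 to 1.77 CPM and Fat2 at 1.12 to 2.235 CPM over all 10 brains, so that only large differences could have been seen, with standard errors of 0.162 to 0.252 in the 2 sexes. Neurod1, at 41.6 to 59.1 CPM, and Zic2, at 49.2 to 74.6 CPM, gave log2 fold changes between -0.10 and 0.073. In the males, Pax6 (96.0, 109 and 100.4 CPM in WT, 95.1, 97.2 and 105 CPM in Het) gave -0.035 ± 0.050 and Cbln1 (52.2, 61.9 and 58.7 CPM, and 61.5, 60.4 and 54.6 CPM) gave 0.04 ± 0.063 (log2, SE).

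Whether the genotype difference itself depended on the tissue was tested with an interaction term over the 12 male samples, of which the WT samples also serve in the comparison of tissues. None of the 10 genes passed with edgeR, where 0.26% of 17337 genes did, and with the Wald test of DESeq2 Zic1 did (adjusted p = 0.00845). In edgeR 4 genes had an unadjusted p under 0.05 against 9.72% of all genes. For Zic1 the log2 interaction term, cerebellum minus E13.5 brain, was -0.22 ± 0.049 (SE, adjusted p = 0.0821). For Slc17a7 it was 0.61 ± 0.231 (adjusted p = 0.36), for Reln 0.23 ± 0.093 (0.422), and for Zic2 -0.17 ± 0.074 (0.471). The 95% interval for Zic1 ran from -0.322 to -0.116.

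Finally, the gene whose pattern over the 16 samples was most like that of each member was sought among 14783 genes with a mean of at least 1 CPM, as the smallest root mean square distance between gene-centred log2 CPM values. The distances were smallest for Acot13 with Zic1 (0.053), Rabgap1l with Reln (0.0583), Pcgf5 with Pax6 (0.0683), Shisa6 with Neurod1 (0.0753), Gstm1 with Etv1 (0.0851), Wscd2 with Cbln1 (0.101) and Itgb1bp1 with Zic2 (0.112). The nearest genes of Fat2 (Car8, 0.277), Cbln3 (Gpr37l1, 0.335) and Slc17a7 (Ppp1r1b, 0.388) were further away. All 16 samples enter each distance, so that the difference between the tissues is part of it. Before the log, 0.5 was added to each CPM. Cbln3 and Fat2 were near 1 CPM in many E13.5 brains, where the added 0.5 and counting noise weigh more. Their part in the larger distances was not tested.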

How the data were processed

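Total polyA RNA from 16 cerebellums and E13.5 brains was sequenced by the authors as single-end reads, mapped to mm10 with TopHat2 2.0.11 and counted over gene exons with htseq-count 0.6.1. The deposited values are raw counts per Ensembl gene; the counting mode and use of strand are not given in the sources used here. The 3 ChIP-seq samples were not analysed here. Some genes of the lists are not reported here, and counts and sums are over the others. Of 41388 identifiers, 40340 were found in GENCODE M21, and the rest held at most 0.171% of the counts of any sample.

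CPM are counts over the total counts of a sample, and RPKM divides CPM by the length of the union of exons. Comparisons used edgeR 4.0.16 in R 4.3.3 (TMM, filterByExpr with a minimum count of 10, quasi-likelihood test), each on its own samples, with Benjamini-Hochberg adjustment over all genes tested. Standard errors are the log2 fold change over the root of F. A gene passed at an adjusted p of at most 0.05. Replicates of a group differed by more than sampling gives, with 2.11 to 11.21 as the chi-square over its degrees of freedom. The fits were tested on simulated counts, where the share of false calls was above the nominal level in each comparison, most in Het against WT cerebellum. All 10 members and Wiz are named in every comparison, with at most 3 called genes of smallest p from each other list and the nearest gene of each member. Further genes of the lists were named after their values were seen. The members and lists were chosen with earlier results of these data known. Alternatives were DESeq2 1.42.0 (size factors and Wald test), no filter, a mean count of at least 50, the fold limits of the study, a replicate block, 1 fit over all 16 samples, Het samples or female WT brains in the tissue comparison, and leaving out each sample.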

Additional observations from a re-analysis of the deposited data

How the results depend on the processing

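For single members, 616 of 657 values under an alternative kept their direction and side of the threshold, 11 lost a call, 12 gained one and 18 changed sign. All 140 values of the tissue comparison kept both. In cerebellum the count of members passing went from 2 to 0 with the fold limits of the study, with the replicate block and with all 16 samples in one fit, and was 0 to 2 when 1 sample was left out. Residuals of same-numbered samples had correlations between -0.16 and 0.008. With 2 or 3 samples a group, centred on their mean, these cannot decide whether the samples were paired. With the replicate block in edgeR the adjusted p was 0.069 for Zic1 and 0.0698 for Cbln3. In the single fit of 16 samples it was 0.319 and 0.188. Over all settings with every sample kept, it ran from 0.00368 to 0.319 for Zic1 and from 0.00246 to 0.188 for Cbln3, lowest with no filter.

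The count of all genes passing in cerebellum, 839, became 133 with the fold limits, 1268 with no filter and 179 with all 16 samples, and 187 to 891 with 1 sample left out, the lowest without the third WT cerebellum (498 without the first WT, 280 without the first Het). In male brain 33 genes became 60 with DESeq2's Wald test and 369 with no filter, and 20 to 157 with 1 brain left out. There 1 member passed with no filter (Slc17a7, adjusted p = 0.000712), and 0 to 1 with a brain left out (Slc17a7, without the third Het brain). In female brain 19 genes became 42 with the Wald test, 3 with the replicate block and 80 with all 16 samples, and 0 to 362 with 1 brain left out. There 1 member passed with all 16 samples (Pax6, adjusted p = 0.0396), and 0 to 2 with a brain left out: without the first WT brain Pax6 had 0.61 (adjusted p = 0.000724) and Zic2 0.38 (0.0396), where the lone WT brain is assumed to vary as the Het brains do. For the interaction 45 genes became 122 with the Wald test, 416 with no filter, 13 with the block and 27 with all 16 samples, and 14 to 103 with 1 sample left out. There 1 member passed with the Wald test (Zic1, adjusted p = 0.00845), 3 with no filter (Zic1, Slc17a7 and Reln), and 0 to 1 with a sample left out, Zic1 without the third male WT brain (0.032) or Slc17a7 without the third male Het brain (0.0142). The causes were not tested.

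Members that changed sign passed neither in the full comparison nor where the sign changed. Over brains left out in turn, in males Cbln1 ran from -0.032 to 0.089, Pax6 from -0.079 to 0.009 and Fat2 from -0.079 to 0.02. In females Neurod1 ran from -0.104 to 0.08, Zic1 from -0.093 to 0.176, Zic2 from -0.226 to 0.376, Cbln3 from -0.204 to 0.192, Reln from -0.209 to 0.147 and Slc17a7 from -0.999 to 0.315, with the changes of sign without the second WT or the second Het brain. The interaction term of Pax6 was -0.015 with no filter and ran from -0.03 to 0.042 with a sample left out.

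Depth limits Cbln3 and Fat2 in the embryo, where about 1 CPM left wide intervals. Wiz in female brain had an adjusted p of 0.056 with the replicate block and of 0.424 and 0.313 without the first and the second Het brain. A p that misses the threshold does not show that values did not differ.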
